A study of Homo sapiens with 18 samples.

Results

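The basement membrane genes described here are 10 of the 21411 genes in the count and CPM tables: the collagen IV chains COL4A1, COL4A2 and COL4A5, the collagen COL18A1, the laminin chains LAMA5, LAMB1 and LAMC1, and nidogen 1 (NID1), perlecan (HSPG2) and agrin (AGRN). They were picked by gene symbol, by a rule that uses no measured value, although earlier results of these data were known. Each symbol matched 1 gene. Of the 10 genes, 9 were above 1 CPM (the reads of a gene scaled to the size of the library) in at least 3 of the 6 libraries of every comparison and were tested, and NID1 was not.

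A basement membrane is a thin sheet of matrix under epithelia and around muscle, fat and vessels. Laminin trimers polymerize at the cell surface, collagen IV trimers form a second, covalently cross-linked network, and nidogen and the heparan sulfate proteoglycans perlecan and agrin link both. Collagen XVIII is a proteoglycan as well, and the fragment released from its C terminus is endostatin. Integrins and dystroglycan anchor the sheet to cells, and carcinoma cells meet it, and cut through it, when they invade. Matrigel, in which these cells grew, is itself a basement membrane extract from a mouse tumor and holds laminin, collagen IV, nidogen and perlecan as protein. The values below are transcript levels of the human cells.

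The cells were MDA-MB-231, an established line of triple-negative breast cancer (TNBC), grown as spheroids in 3D Matrigel culture for 7 days, and all 6 conditions shared this culture. Jag1WT is the parental line, which has the Notch ligand Jagged1. For Jag1KO, Cas9 cut JAG1 in exon 2 and single-cell clones were mixed, so that it is no single clone, Jag1KO + rescue is Jag1KO with a plasmid that carries Jagged1 cDNA, and Jag1KO + ctrl is Jag1KO with the empty plasmid. Both plasmid lines were kept under G418, which the other conditions did not receive. siCtrl and siJag1 are Jag1WT cells transfected with a nontargeting siRNA or with siRNAs against Jagged1 before seeding. Each condition had 3 libraries, labelled as biological replicates, and 18 libraries were analyzed in all.

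Between 10330581 and 18327890 reads per library were counted on genes. JAG1 was at 433, 585 and 522 CPM in the 3 Jag1WT libraries and at 116, 205 and 149 CPM in Jag1KO, a log2 fold change of 1.71 (FDR = 0.0162, edgeR quasi-likelihood test with Benjamini-Hochberg adjustment). It was at 534, 657 and 646 CPM in Jag1KO + rescue, at 110.2, 134 and 147 CPM in Jag1KO + ctrl, at 441, 626 and 531 CPM in siCtrl and at 167, 203 and 131 CPM in siJag1. The log2 fold changes were 2.22 for rescue against ctrl (FDR = 0.0229, edgeR) and 1.68 for siCtrl against siJag1, where JAG1 itself did not pass the adjusted test (FDR = 0.111, edgeR). The RNA level of an edited gene does not measure its protein. Markers of the line were high, with VIM between 2184 and 4946 CPM. Among the markers chosen as low in the line, ESR1 was at 0 in 17 of 18 libraries. PGR was at most 1.77 CPM and CDH1 at most 1.16 CPM. ERBB2 (at least 32.5 CPM) and EPCAM (at least 5.18 CPM), also chosen as low, were detected in all libraries. Of the markers of cells that also make basement membranes, CDH5 of endothelium was at most 0.0955 CPM and DCN of fibroblasts at most 0.130 CPM, whereas COL1A1 (at most 10.04 CPM), RGS5 (at most 10.9 CPM) and CSPG4 (at most 18.7 CPM) were detected in all libraries. The summed level of 5 fibroblast markers was 3.12 to 10.9 CPM. That of 4 smooth muscle and pericyte markers was 13.6 to 16.2 CPM in Jag1WT and, without overlap, 19.7 to 23.7 CPM in Jag1KO, and 12.9 to 26.4 CPM over all libraries. The summed level of 5 endothelial markers was 13.8 to 14.5 CPM in Jag1WT and 15.4 to 19.5 CPM in Jag1KO, 18.2 to 23.5 CPM in Jag1KO + ctrl, 17.9 to 20.2 CPM in Jag1KO + rescue, 12.6 to 13.7 CPM in siCtrl and 18.1 to 19.4 CPM in siJag1, nearly all of it KDR and PECAM1. The part of these lists in the results was not tested. The libraries also differed in the mean log2(CPM + 1) of 97 S and G2/M phase genes, between 4.10 and 6.09. The values at 5.55 or above were those of Jag1KO replicates 2 and 3, Jag1KO + ctrl replicates 1 and 2 and siJag1 replicate 2, whereas the other libraries were at or below 5.10.

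COL4A1 and COL4A2 lie head to head on chromosome 13 in hg38 (GENCODE v44), COL4A1 on the minus strand (chr13:110148963-110307157) and COL4A2 on the plus strand (chr13:110305812-110513209). In the RefSeq table of promoters (GRCh38.p14), which gives 250 bases before and 50 bases after each start, their start sites are 127 bp apart and the windows share 226 bp. The windows of both genes are shown because a single stretch of DNA serves as the promoter of both chains, and those of LAMA5 and HSPG2 because these genes had the largest log2 fold changes between the plasmid lines. Each runs 5′ to 3′ on the strand of its gene, and capitals mark GGGCGG or its reverse complement CCGCCC, the core of the GC box.
COL4A1 (chr13:110307108-110307407, minus strand): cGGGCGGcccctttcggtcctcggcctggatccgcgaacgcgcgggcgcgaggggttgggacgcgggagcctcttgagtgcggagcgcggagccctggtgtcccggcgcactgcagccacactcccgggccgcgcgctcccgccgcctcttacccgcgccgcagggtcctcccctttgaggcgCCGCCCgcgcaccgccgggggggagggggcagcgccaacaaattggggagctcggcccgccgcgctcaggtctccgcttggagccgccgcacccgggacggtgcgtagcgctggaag
COL4A2 (chr13:110307034-110307333, plus strand): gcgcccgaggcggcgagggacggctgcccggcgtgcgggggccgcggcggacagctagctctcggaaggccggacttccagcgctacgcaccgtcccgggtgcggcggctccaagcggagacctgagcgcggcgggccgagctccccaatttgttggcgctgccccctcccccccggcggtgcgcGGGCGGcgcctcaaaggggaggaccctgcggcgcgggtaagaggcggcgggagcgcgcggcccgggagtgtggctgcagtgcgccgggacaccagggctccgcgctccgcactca
LAMA5 (chr20:62367263-62367562, minus strand): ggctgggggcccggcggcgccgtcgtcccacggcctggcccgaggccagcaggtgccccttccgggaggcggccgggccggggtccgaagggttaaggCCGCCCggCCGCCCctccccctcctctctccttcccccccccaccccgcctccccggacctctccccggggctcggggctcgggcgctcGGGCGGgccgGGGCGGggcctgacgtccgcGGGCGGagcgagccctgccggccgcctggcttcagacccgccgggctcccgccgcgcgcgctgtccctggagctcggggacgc
HSPG2 (chr1:21937261-21937560, minus strand): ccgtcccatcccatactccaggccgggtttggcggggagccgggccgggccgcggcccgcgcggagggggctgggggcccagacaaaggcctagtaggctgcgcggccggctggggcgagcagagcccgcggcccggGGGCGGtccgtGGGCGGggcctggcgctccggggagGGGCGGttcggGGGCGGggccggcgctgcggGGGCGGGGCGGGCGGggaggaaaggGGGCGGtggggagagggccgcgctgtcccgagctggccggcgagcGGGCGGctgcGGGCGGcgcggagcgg

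Searched on both strands, with overlapping matches counted, the GC box letters occurred 2 times in the COL4A1 window, 1 time in that of COL4A2, 5 times in that of LAMA5 and 10 times in that of HSPG2. The match 67 bases before the COL4A1 start and the match 65 bases before the COL4A2 start are the same letters of the shared stretch. Of the 10 genes, 8 had a window in the table, and 7 of these held the GC box letters, as did 45.0% of all 35116 windows. Only the COL4A5 window, with 49.3% G and C, had none, and the other 7 windows had 71.0% to 83.3% G and C against a mean of 57.5% over all windows. TGGGAA, the core letters bound by RBPJ, the DNA-binding factor of Notch signaling, occurred in 1 of the 8 windows, that of NID1, and in 24.0% of all windows. TGACTCA, the AP-1 letters, occurred in 0 of the 8 and in 4.95% of all windows. A match is a run of letters and was not tested as a binding site.

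The remaining genes are on other chromosomes or far apart. COL4A5 is at chrX:108439838-108697545, COL18A1 at chr21:45405165-45513720, LAMA5 at chr20:62307955-62367312 and LAMB1 at chr7:107923799-108003213. LAMC1 (chr1:183023420-183145592), NID1 (chr1:235975830-236065109), HSPG2 (chr1:21822244-21937310) and AGRN (chr1:1020120-1056118) share chromosome 1. COL18A1 overlaps the antisense genes COL18A1-AS1 and COL18A1-AS2 and the end of SLC19A1 on the opposite strand, and COL4A2 overlaps COL4A2-AS1, COL4A2-AS2 and COL4A1. LAMA5 overlaps ADRM1 and LAMA5-AS1 on the opposite strand, LAMB1 overlaps DLD, LAMC1 overlaps LAMC1-AS1 and HSPG2 overlaps LDLRAD2. The kit kept the strand, but whether the counting used it is not given in the sources used here, so that reads of such partners could have been counted with these genes.

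Laminin transcripts were the most abundant. Per kilobase of the canonical GENCODE transcript, LAMC1 was first of the 10 genes in all 6 conditions, at 81.2 ± 0.773 CPM per kb (SD, n = 3) in Jag1WT. LAMB1 (54.9 ± 4.07) and AGRN (51.7 ± 10.6) followed in Jag1WT, and LAMA5 was at 22.6 ± 7.70 CPM per kb. In Jag1KO, Jag1KO + ctrl and siCtrl, the mean of AGRN (49.4, 46.7 and 51.8) was slightly above that of LAMB1 (48.1, 45.4 and 51.0). The 3 laminin chains made up 61.4% to 71.2% of the summed level per kb of the 10 genes in the 18 libraries, lowest in siCtrl replicate 2 and highest in Jag1KO + rescue replicate 3. LAMA5 was at 0.176 to 0.618 times the level of LAMB1 per kb. A trimer holds 1 chain of each kind, but other alpha and beta chains were also expressed. LAMA3 was at 87.0 to 204 CPM, LAMA1 at 7.67 to 21.9, LAMA4 at 4.43 to 22.7 and LAMB2 at 167 to 258. These were named after the values were seen, and the make-up of the trimers was not measured.

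**Figure D1:**
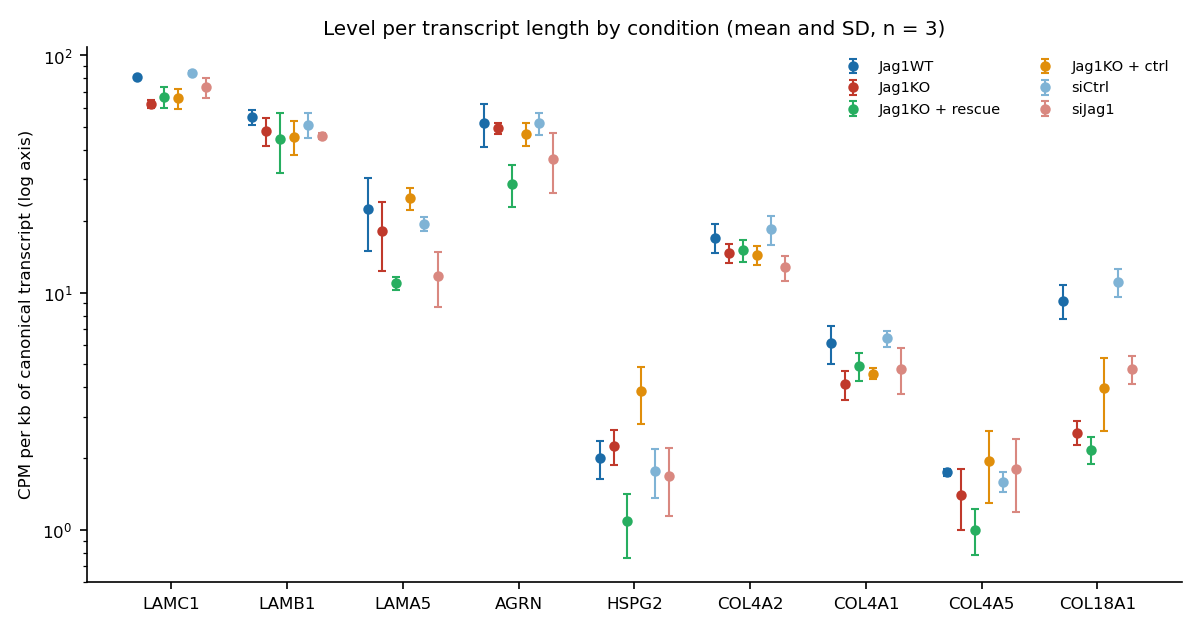
Level of 9 basement membrane genes by condition, in CPM per kb of the canonical transcript on a log axis (points are means and bars are SDs of 3 libraries). LAMC1 is highest throughout, HSPG2 and COL4A5 are at the bottom, and COL18A1 shows a wide spread between conditions, from 2.18 in Jag1KO + rescue to 11.1 in siCtrl.

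Among the collagens, COL4A2 was at 17.0 ± 2.38 CPM per kb (SD, n = 3) in Jag1WT, COL18A1 at 9.24 ± 1.5, COL4A1 at 6.12 ± 1.12 and COL4A5 at 1.75 ± 0.0555. COL4A1 and COL4A2, whose products join as a trimer of 2 chains of COL4A1 and 1 of COL4A2, were thus not level: the ratio of COL4A1 to COL4A2 per kb was 0.248 to 0.409 over the 18 libraries. The size of this gap depends on the length used. The authors' RPKM rest on 15600 bp for COL4A1, 2.39 times its canonical transcript of 6540 bp, and 6264 bp for COL4A2, and with those lengths COL4A1 was at 2.57 ± 0.469 RPKM (SD, n = 3) in Jag1WT and COL4A2 at 17.5 ± 2.45. For the other 8 genes the authors' length was 0.995 to 1.26 times the canonical transcript. HSPG2, the transcript of the large proteoglycan perlecan, was at 2.00 ± 0.371 CPM per kb.

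NID1, the linker between laminin and collagen IV, was not detected in 17 of 18 libraries and had 2 reads in Jag1KO replicate 1. A count of 0 allows up to 3 reads, which is between 0.162 and 0.287 CPM in these libraries (counting error only). NID2, its paralog, was at 0 in 11 of 18 libraries and at most 0.301 CPM. Other chains from the list of basement membrane genes were far above this, with LAMB3 between 602 and 2023 CPM and LAMA3 between 87.0 and 204 CPM. COL4A3 (at most 1.38 CPM) and COL4A6 (at most 2.11 CPM) were near or under the 1 CPM filter, and COL4A4 was between 4.95 and 9.79 CPM. These chains were named for their levels after the values were seen.

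**Figure D2:**
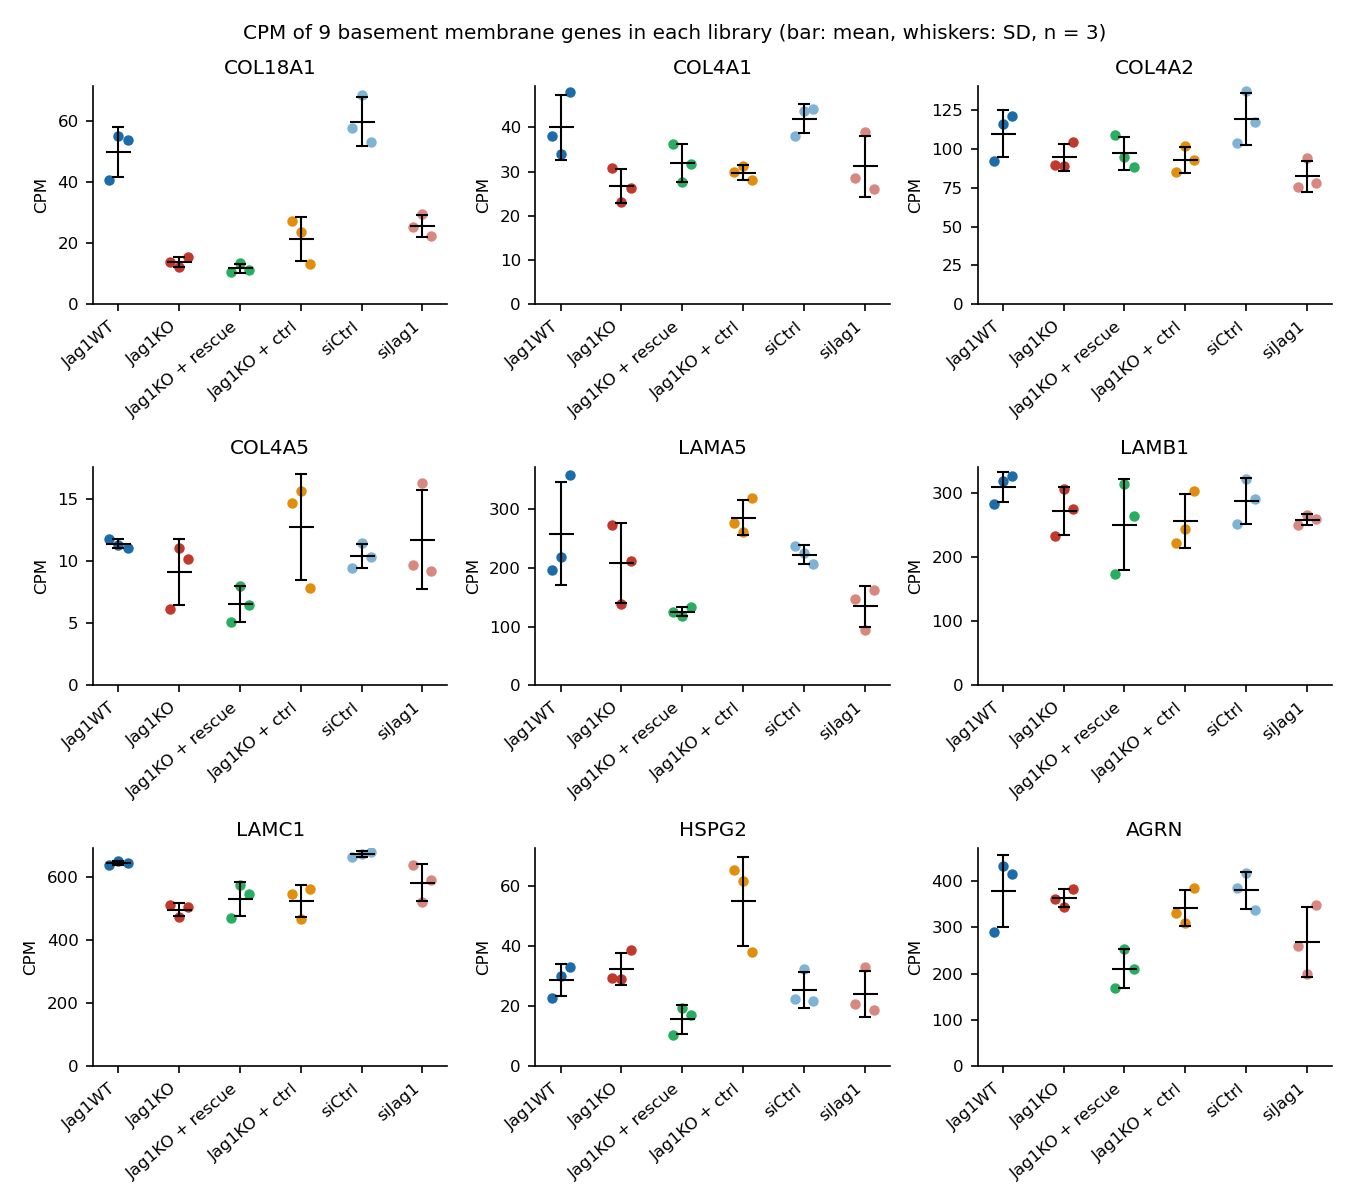
CPM of the 9 detected basement membrane genes in each of the 18 libraries (points) by condition, with the mean (bar) and SD (whiskers) of 3 libraries, each axis starting at 0. COL18A1 is at 40.6 CPM or above in all Jag1WT and siCtrl libraries and at 29.5 CPM or below in all others, and HSPG2, LAMA5 and AGRN are low in Jag1KO + rescue.

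Jag1WT was compared with Jag1KO to ask which of these genes follow the loss of Jagged1. COL18A1 was higher in Jag1WT, and it was the member that passed the test (FDR below 0.05 and a fold change above 1.5). It was at 40.6, 55.2 and 54.1 CPM in the Jag1WT libraries and at 13.9, 12.3 and 15.5 CPM in the Jag1KO libraries. Every Jag1WT library was far above every Jag1KO library. The log2 fold change was 1.85 ± 0.171 (SE, n = 3 per group, FDR = 0.00507, edgeR), or 3.59-fold. In bulk RNA, fewer cells making the transcript and less of it per cell cannot be told apart. Between 159 and 829 reads per library lay behind these values. Of 9 tested members, 1 was higher and 0 lower, where 0.412% of the 12879 genes tested were called higher and 0.303% lower, and limma and DESeq2 also called COL18A1 alone of the members (DESeq2 called 0.901% of all genes higher). At an unadjusted p below 0.05, 3 members passed, COL18A1, COL4A1 and LAMC1, as did 8.81% of all genes tested. COL18A1 missed the threshold without Jag1WT replicate 3 (FDR = 0.0540) and kept its call without each of the other 5 libraries (FDR between 0.00105 and 0.0381). Jag1KO replicate 1, with a cell-cycle level of 4.11 in the range of the Jag1WT libraries (4.10 to 4.91), had 13.9 CPM of COL18A1, beside 12.3 and 15.5 CPM in Jag1KO replicates 2 and 3 at 5.55 and 5.67. This is 1 library, and the part of the cell-cycle level in the result was not tested.

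The collagen IV chains differed less in that comparison. COL4A1 was at 38.1, 33.9 and 48.1 CPM in Jag1WT and at 30.9, 23.2 and 26.3 CPM in Jag1KO, so that every Jag1WT library was above every Jag1KO library. The log2 fold change of 0.57 ± 0.173 (SE) did not pass the adjusted test (FDR = 0.343, edgeR), except without Jag1KO replicate 1, where it was 0.69 with FDR = 0.0351 and 2.61% of all genes were called higher. COL4A2 was at 92.3, 116 and 121 CPM and at 89.8, 89.1 and 104 CPM, and these ranges overlapped (log2 fold change 0.21, 95% interval −0.10 to 0.53). COL4A5, a chain of another collagen IV trimer, was at 11.8, 11.4 and 11.1 CPM in Jag1WT and at 6.13, 11.045 and 10.2 CPM in Jag1KO. All its Jag1KO values were below those of Jag1WT, but replicates 2 and 3 only narrowly, and the log2 fold change was 0.32 ± 0.236 (SE, FDR = 0.741).

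LAMC1, the gamma1 chain shared by most laminins, was at 638, 650.0 and 644 CPM in Jag1WT and at 509.8, 472 and 503 CPM in Jag1KO. The groups did not overlap, and the log2 fold change was 0.38 ± 0.0961 (SE, FDR = 0.222, edgeR). Its fold of 1.30 is under the threshold of 1.5. It was therefore not called where its FDR was below 0.05, at 0.0467 without Jag1KO replicate 1 (edgeR) and at 0.00702 with DESeq2. LAMA5 (197, 219 and 359 CPM against 274, 139 and 212 CPM) and LAMB1 (284, 319 and 327 CPM against 233, 307 and 276 CPM) overlapped, with log2 fold changes of 0.31 ± 0.291 and 0.18 ± 0.132 (SE). HSPG2 (22.8, 30.1 and 33.1 CPM against 29.6, 29.0 and 38.7 CPM) and AGRN (289.9, 432 and 415 CPM against 361, 343 and 382 CPM) overlapped as well, with −0.18 ± 0.189 and 0.06 ± 0.161. In all, every Jag1WT library was above every Jag1KO library for 4 of 9 members, COL18A1, COL4A1, COL4A5 and LAMC1, against 7.24% of all genes tested. The median log2 fold change of the 9 members was 0.31, with 8 above 0, and that of all genes was −0.0089.

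**Figure D3:**
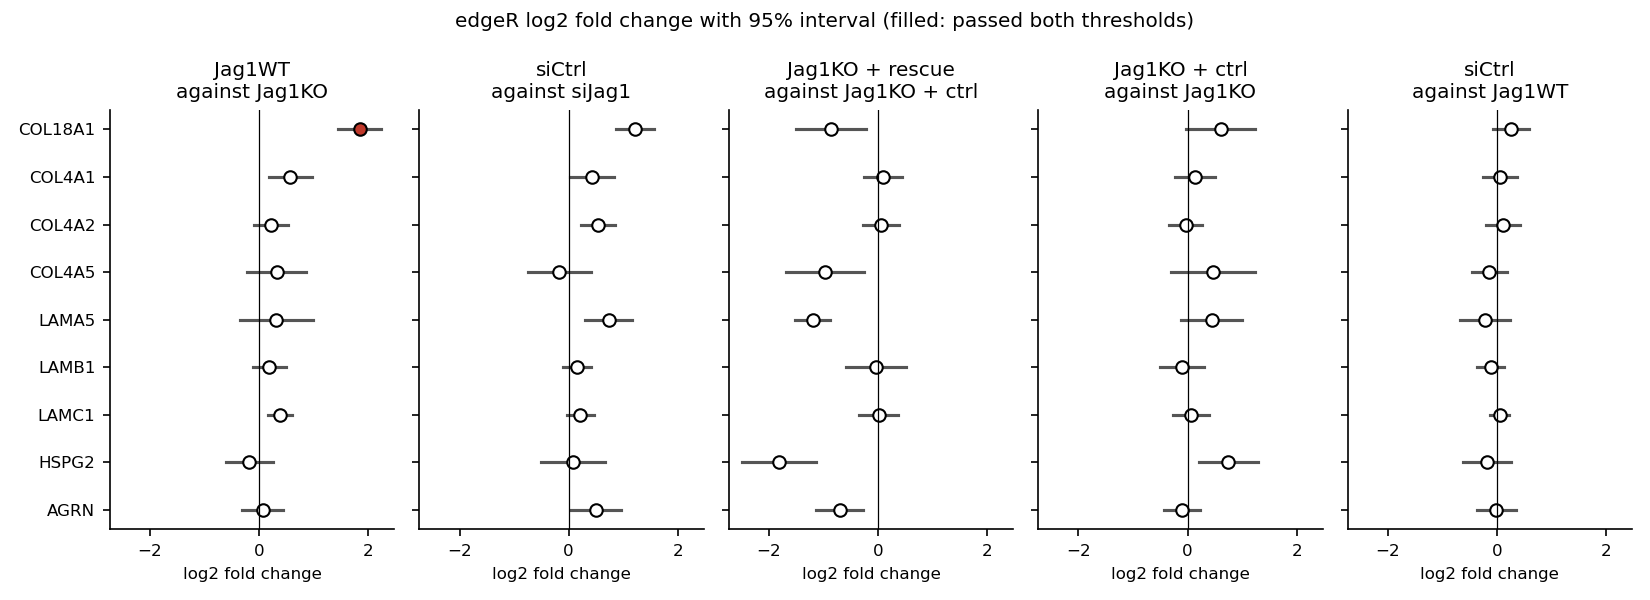
Log2 fold change (edgeR) of the 9 tested members in the 5 comparisons, the first-named condition against the second, with 95% intervals. COL18A1 in Jag1WT against Jag1KO, at 1.85, is the filled point that passed both thresholds. HSPG2 and LAMA5 lie furthest to the left in Jag1KO + rescue against Jag1KO + ctrl, at −1.82 and −1.20.

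Proteins that build, hold or cut the basement membrane were followed in lists chosen by function. Of 8 tested chains and linkers outside the 10 genes, 0 passed in Jag1WT against Jag1KO, where LAMA1 had a log2 fold change of −0.46 (FDR = 0.474). Of 8 associated proteins, 1 was higher, NTN4, a netrin that binds laminin gamma chains, at 122 CPM on average in Jag1WT and 63.0 CPM in Jag1KO (log2 fold change 0.95, FDR = 0.0202). FBLN1 was at 1.70 and 4.37 CPM (FDR = 0.102) and LTBP3, which binds latent TGFβ, at 35.0 and 18.1 CPM (FDR = 0.172), and neither passed. Of 14 genes of collagen folding and cross-linking, 0 passed, with P4HA2, a prolyl hydroxylase, at a log2 fold change of 0.57 (FDR = 0.263) and P3H2 at −1.15 (FDR = 0.542). Of 15 genes that make or trim heparan sulfate, 0 passed, with HS6ST1 at 0.62 (FDR = 0.564). Of 13 receptors, 0 passed, and 3 integrin chains that bind collagen or laminin had the lowest p values: ITGA1 at 0.92 (FDR = 0.0898), ITGA3 at 0.54 (FDR = 0.164) and ITGA2 at 0.38 (FDR = 0.297). Of 11 proteases, 1 was higher and 1 lower. CTSB, a lysosomal and secreted cathepsin, averaged 720 CPM in Jag1WT and 436 CPM in Jag1KO (log2 fold change 0.72, FDR = 0.0322), and ADAMTS1, a secreted metalloproteinase, 13.0 and 44.6 CPM (log2 fold change −1.79, FDR = 0.00918). These lists had median log2 fold changes between −0.22 and 0.21.

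The knockdown of Jagged1 by siRNA asked the same question without clones. COL18A1 was at 57.9, 68.7 and 53.1 CPM in siCtrl and at 25.5, 29.5 and 22.4 CPM in siJag1, and the groups did not overlap. The log2 fold change was 1.22 ± 0.151 (SE, n = 3 per group), 2.33-fold higher in siCtrl, with FDR = 0.125 in edgeR. edgeR called 0 of 9 members higher and 0 lower, where 0.0157% of the 12774 genes tested were called higher and 0% lower, limma called 0 and DESeq2 called 1, COL18A1, where DESeq2 called 0.164% of all genes higher. At an unadjusted p below 0.05, 5 members passed, COL18A1, LAMA5, COL4A2, AGRN and COL4A1, as did 3.83% of all genes tested. Libraries of the same replicate number deviated together in these conditions, which the main fit does not take into account. With a replicate block COL18A1 was called (log2 fold change 1.22, FDR = 0.0179), as 1 of 4 genes called higher, 0.0313% of those tested. It was also called without siJag1 replicate 2 (log2 fold change 1.34, FDR = 0.0182, 0.0316% of all genes called higher) and not without any other single library (FDR between 0.424 and 0.691). The cell-cycle level of siJag1 replicate 2 was 6.07, and that of the other siCtrl and siJag1 libraries was 4.18 to 5.10.

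LAMA5 was at 238, 225 and 206 CPM in siCtrl and at 147, 94.8 and 162 CPM in siJag1, with no overlap (log2 fold change 0.74 ± 0.186, SE, FDR = 0.970, edgeR). COL4A2 was at 103, 137 and 117 CPM and at 75.4, 93.8 and 77.9 CPM, also without overlap (0.54 ± 0.137). Of 9 members, 4 had every siCtrl library above every siJag1 library, COL18A1, COL4A2, LAMA5 and LAMC1, against 5.15% of all genes tested. LAMC1 was at 661, 672.5 and 679 CPM and at 636, 519.6 and 588 CPM. COL4A1 (38.2, 43.6 and 44.1 CPM against 28.5, 38.9 and 26.1 CPM) and AGRN (385, 416 and 337 CPM against 259.8, 198 and 348 CPM) overlapped in 1 siJag1 library each, replicate 2 for COL4A1 and replicate 3 for AGRN. HSPG2 (22.4, 32.3 and 21.7 CPM against 20.6, 32.9 and 18.8 CPM), LAMB1 (251.3, 323 and 290.5 CPM against 250.2, 266 and 260.3 CPM) and COL4A5 (9.48, 11.5 and 10.4 CPM against 9.69, 16.3 and 9.23 CPM) overlapped. The median log2 fold change of the members was 0.43, with 8 of 9 above 0, and that of all genes was −0.0073. Among the lists, LTBP3 was the gene that passed, at 31.2 CPM on average in siCtrl and 12.3 CPM in siJag1 (log2 fold change 1.35, FDR = 0.0484). NTN4 was at 138 and 90.9 CPM (FDR = 0.970), and ADAMTS1 at 11.97 and 19.0 CPM (FDR = 0.970).

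Return of Jagged1 cDNA to Jag1KO was set against the empty plasmid to ask which genes follow the return of the ligand. COL18A1 was low in both lines. It was at 10.5, 13.5 and 11.3 CPM in Jag1KO + rescue, within or below the Jag1KO range, while JAG1 was at 534 to 657 CPM. It was at 27.2, 23.6 and 13.2 CPM in Jag1KO + ctrl, a log2 fold change of −0.86 ± 0.277 (SE, n = 3 per group, FDR = 0.113, edgeR) for rescue against ctrl. The 13.2 CPM of Jag1KO + ctrl replicate 3 lay among the rescue libraries. That library had a cell-cycle level of 4.41, against 5.72 and 6.09 in Jag1KO + ctrl replicates 1 and 2 and 4.18 to 5.02 in Jag1KO + rescue, and the part of this difference in the result was not tested.

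**Figure D4:**
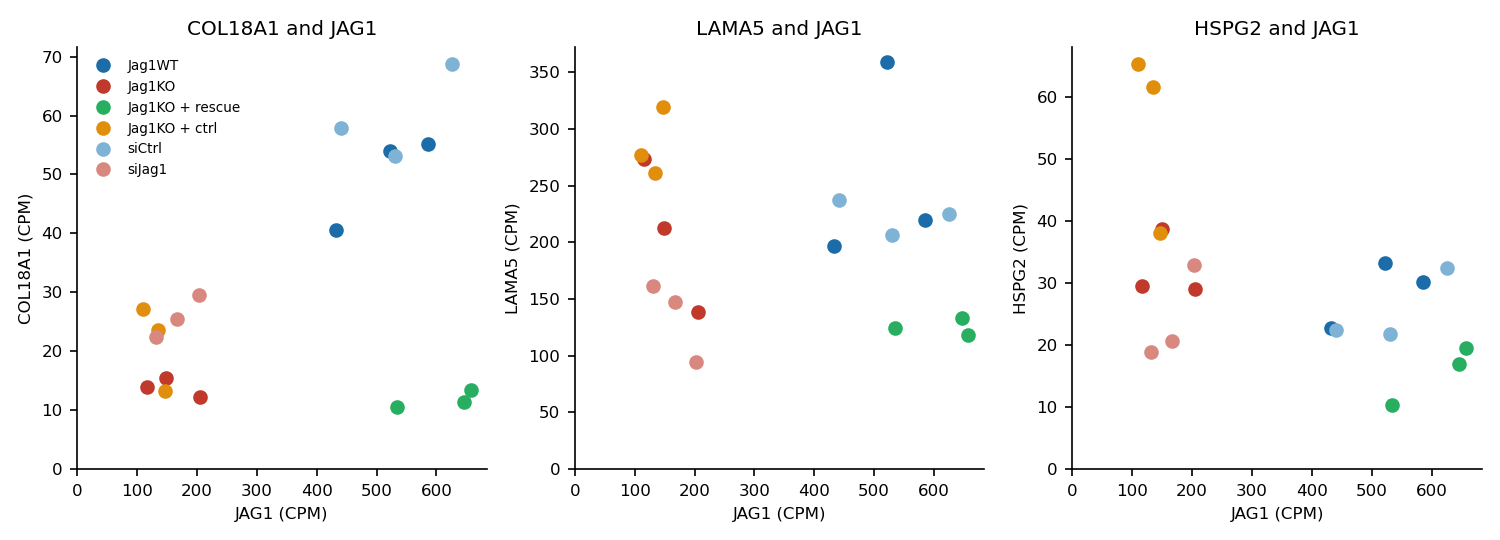
CPM of COL18A1, LAMA5 and HSPG2 against CPM of JAG1 in the 18 libraries, 1 point each, colored by condition. The Jag1KO + rescue libraries have 534 to 657 CPM of JAG1 but 10.5 to 13.5 CPM of COL18A1, where Jag1WT and siCtrl have 40.6 to 68.7 CPM.

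HSPG2, LAMA5 and AGRN were lower in every Jag1KO + rescue library than in every Jag1KO + ctrl library. HSPG2 was at 10.4, 19.5 and 17.0 CPM in rescue and at 65.2, 61.6 and 38.0 CPM in ctrl (log2 fold change −1.82 ± 0.294, SE, FDR = 0.104, edgeR). LAMA5 was at 124, 118 and 133 CPM and at 277, 261 and 320 CPM (−1.20 ± 0.138, FDR = 0.104). AGRN was at 169, 253 and 209 CPM and at 332, 309 and 385 CPM (−0.71 ± 0.188, FDR = 0.105). Perlecan and agrin carry heparan sulfate and bind laminin, and LAMA5 is the alpha chain of the laminins most widespread in adult basement membranes. COL4A5 was at 5.11, 7.99 and 6.51 CPM and at 14.7, 15.7 and 7.88 CPM, so that Jag1KO + ctrl replicate 3 lay just below the highest rescue library (−0.97 ± 0.309, FDR = 0.112).

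In edgeR 0 of these 9 members were called higher and 0 lower, where 0.00778% of the 12850 genes tested were called higher and 0% lower. At an unadjusted p below 0.05, 5 members passed, AGRN, COL18A1, COL4A5, HSPG2 and LAMA5, as did 3954 of all genes tested, or 30.8%. limma called 0 members and DESeq2 these 5, where DESeq2 called 7.74% of all genes lower. Without Jag1KO + ctrl replicate 3, edgeR called these 5 lower too (FDR between 0.00305 and 0.0403), where 14.8% of the 12690 genes tested were called lower. That every rescue library was below every ctrl library held for 3 of 9 members, against 16.0% of all genes. The median log2 fold change of the members was −0.71, with 3 of 9 above 0, against −0.0024 for all genes.

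The other chains did not separate the plasmid lines. LAMC1 was at 471, 574 and 545 CPM in Jag1KO + rescue and at 545, 464 and 561 CPM in Jag1KO + ctrl, a log2 fold change of 0.01 with a 95% interval from −0.35 to 0.37. COL4A1 was at 36.3, 27.7 and 31.7 CPM and at 29.9, 31.4 and 28.1 CPM (0.09, interval −0.26 to 0.44). COL4A2 was at 109, 94.4 and 88.0 CPM and at 84.8, 102 and 92.6 CPM (0.05, interval −0.27 to 0.38). LAMB1 was at 174, 315 and 264 CPM and at 222, 244 and 303 CPM (−0.04, interval −0.59 to 0.52), and its rescue libraries spread over nearly the whole range of the gene. In the lists, 0 genes passed, with median log2 fold changes of −0.53 for 13 receptors, −0.33 for 9 associated proteins, −0.31 for 8 other chains and linkers, −0.17 for 15 heparan sulfate genes, −0.05 for 14 folding and cross-linking genes and 0.18 for 11 proteases.

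Control comparisons, between conditions whose JAG1 status was meant to be the same, gave the background. In Jag1KO + ctrl against Jag1KO, edgeR called 0 of 9 members higher and 0 lower, and 0% of the 12956 genes tested in each direction. HSPG2 was at 65.2, 61.6 and 38.0 CPM in Jag1KO + ctrl and at 29.6, 29.0 and 38.7 CPM in Jag1KO, and it was the member with an unadjusted p below 0.05 (log2 fold change 0.75 ± 0.234, SE, FDR = 0.757), where 5.81% of all genes were below it. limma and DESeq2 called 0 members, and at an unadjusted p below 0.05 DESeq2 had 2, HSPG2 and COL18A1. Without Jag1KO + ctrl replicate 3, edgeR called HSPG2 (0.96, FDR = 0.0439), where 0.881% of all genes were called higher. COL18A1 had a log2 fold change of 0.61 (95% interval −0.03 to 1.25), so that its level in the empty-plasmid line was not shown to be that of Jag1KO. The part of the plasmid, of G418 and of the libraries themselves in these values cannot be told apart. The median of the members was 0.14.

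In siCtrl against Jag1WT, edgeR called 0 of 9 members higher and 0 lower, 0% of the 12797 genes tested in each direction, and 0 members were below an unadjusted p of 0.05 with edgeR, limma or DESeq2. With a replicate block edgeR had COL18A1 below it, as it had 1222 of the 12797 genes tested, and called 0 members. LAMC1 alone had every siCtrl library above every Jag1WT library, 1 of 9 members against 3.41% of all genes, with a log2 fold change of 0.05 (95% interval −0.13 to 0.23). COL18A1 had 0.25 (interval −0.08 to 0.58). These 2 comparisons share libraries with the 3 above. The members' median was −0.0093.

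Whether effects differed between comparisons was tested on pairs of comparisons that share no library, over the 12 libraries of each pair. The knockout and the siRNA differed for 0 of 9 members, where 0.110% of the 12765 genes tested did. COL18A1 had a larger log2 fold change in the knockout by 0.63 (95% interval 0.12 to 1.13, FDR = 0.999), the 1 member with an unadjusted p below 0.05, as 3.88% of all genes had, and limma and DESeq2 called 0 members. The knockout and the rescue differed for COL18A1, by 2.74 ± 0.347 on the log2 scale (SE, FDR = 0.00486), 1 of 9 members where 0.555% of the 12804 genes tested differed. HSPG2 (1.67, FDR = 0.0588) and LAMA5 (1.53, FDR = 0.0600) did not pass. Without Jag1KO + ctrl replicate 3, 4 members passed, COL18A1, HSPG2, LAMA5 and COL4A5, where 19.9% of all genes did, and COL18A1 passed without each of the 12 libraries.

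The siRNA and the rescue differed for 2 of 9 members, LAMA5 by 1.96 ± 0.238 (SE, FDR = 0.0150) and COL18A1 by 2.10 ± 0.331 (FDR = 0.0493), where 0.0940% of the 12761 genes tested differed. Both were higher in siCtrl than in siJag1 and lower in rescue than in ctrl. The COL18A1 call was lost in limma and on leaving out single libraries other than Jag1KO + rescue replicate 2 and Jag1KO + ctrl replicate 3. LAMA5 lost its call without Jag1KO + rescue replicate 1, siCtrl replicate 1 or siJag1 replicate 1, and without Jag1KO + ctrl replicate 3 AGRN and HSPG2 passed as well, where 15.1% of all genes did. With a replicate block, which is a shared number and no known pairing in the plasmid lines, 4 members differed, AGRN and HSPG2 beside these, where 3.79% of all genes did. Of the lists, ITGA1 (1.73, FDR = 0.0489) and ADAMTS1 (−1.94, FDR = 0.00262) differed between the knockout and the rescue, and LTBP3 (1.69, FDR = 0.0155) between the siRNA and the rescue.

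Over the 6 conditions COL18A1 had the widest range relative to its level, with means of 59.9 CPM in siCtrl, 50.0 in Jag1WT, 25.8 in siJag1, 21.4 in Jag1KO + ctrl, 13.9 in Jag1KO and 11.8 in Jag1KO + rescue. Neighbors in this order overlapped in their libraries except Jag1WT and siJag1. LAMC1 ran in a narrow band for its level, from 671 CPM in siCtrl to 495 CPM in Jag1KO, and its 3 Jag1WT libraries had a coefficient of variation of 0.952%. HSPG2 was highest in Jag1KO + ctrl (55.0 ± 14.8 CPM, SD, n = 3) and lowest in Jag1KO + rescue (15.6 ± 4.73), and LAMA5 had the same ends of its order (286 ± 30.3 and 125 ± 7.63).

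**Figure D5:**
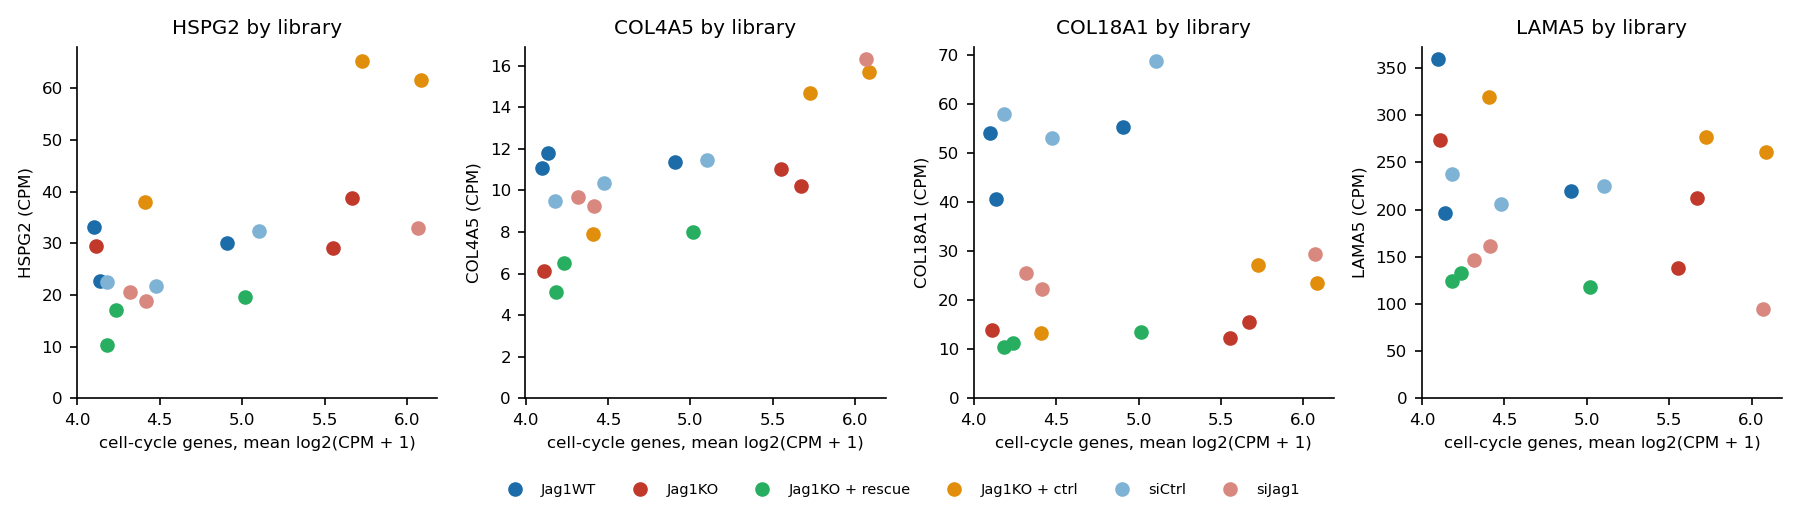
CPM of HSPG2, COL4A5, COL18A1 and LAMA5 (vertical axes, from 0) against the mean log2(CPM + 1) of 97 cell-cycle genes (horizontal axis) in the 18 libraries, colored by condition. The 5 libraries at 5.55 or above include the 3 with the most COL4A5. COL18A1 is low in Jag1KO at either end of the axis. In Jag1KO + ctrl and siJag1 it is highest in the libraries at 5.55 or above.

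Within conditions, several members followed the library. COL4A5 was at 14.7, 15.7 and 16.3 CPM in Jag1KO + ctrl replicates 1 and 2 and siJag1 replicate 2, the libraries with cell-cycle levels of 5.72, 6.09 and 6.07, and at 7.88, 9.69 and 9.23 CPM in the other libraries of those conditions. HSPG2 was likewise higher in those 3 libraries than in the others of their conditions. So was COL18A1, at 27.2, 23.6 and 29.5 CPM, against 13.2, 25.5 and 22.4 CPM in the others. In Jag1KO, HSPG2 and COL18A1 did not split in this way. COL18A1 was at 12.3 and 15.5 CPM in replicates 2 and 3 and at 13.9 CPM in replicate 1. HSPG2 was at 29.0 and 38.7 CPM in replicates 2 and 3, with levels of 5.55 and 5.67, and at 29.6 CPM in replicate 1, with a level of 4.11. LAMA5 was lowest of its condition in siJag1 replicate 2, at 94.8 CPM, and in Jag1KO replicate 2, at 139 CPM. The part of the cell-cycle level in these values was not tested. After the mean of each condition was taken off, the log2 values of HSPG2 and COL18A1 had r = 0.856 over the 18 libraries, those of HSPG2 and COL4A5 r = 0.760 and those of COL4A1 and COL4A2 r = 0.519. All genes of a library share its depth and state, and these correlations are a description.

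The laminin chains did not track each other closely, and the collagen IV chains COL4A1 and COL4A2 were nearer to each other. Over all 18 libraries COL4A1 and COL4A2 had r = 0.702 in log2(CPM + 1), LAMB1 and LAMC1 r = 0.500, LAMA5 and LAMC1 r = 0.258 and LAMA5 and LAMB1 r = 0.184. LAMA5 was closer to AGRN (r = 0.775), and COL18A1 to LAMC1 (r = 0.792). After the condition means were taken off, r was 0.550 for LAMA5 and AGRN but −0.114 for COL18A1 and LAMC1.

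The genes whose pattern over the 18 libraries was most like that of each member were searched among 12433 genes tested in all 5 comparisons and outside the lists, by Pearson's r of log2(CPM + 1), as a description. For COL18A1 they were MELTF (r = 0.954), ADAM19 (0.947), a membrane-bound metalloproteinase, and PLXNA1 (0.938), a semaphorin receptor. For LAMC1 they were RAB31 (0.942), AKAP13 (0.908) and IL4R (0.905), and for LAMA5 LGALS3BP (0.930), MZF1 (0.921) and MIB2 (0.919). For COL4A2 they were EGFL7 (0.784), COL5A1 (0.768), a chain of fibrillar collagen V, and LUC7L2 (0.701). These values are lower than those of the other members, and none of the genes searched followed COL4A2 closely. COL4A1, a member and so not searched, had r = 0.702 with COL4A2, just above LUC7L2. For COL4A1 they were OTULINL (0.862), ATP2B4 (0.847) and TAGLN2 (0.830), for COL4A5 PDLIM1 (0.958), GBP2 (0.957) and PHKB (0.955) and for LAMB1 ZNF839 (0.9403), BAIAP2L1 (0.896) and USP40 (0.895). For HSPG2 they were SCRN2 (0.969), EPS8L2 (0.965) and PFKL (0.960), and for AGRN MAP2K2 (0.947), TSPAN4 (0.942) and ARRDC1 (0.900). For COL4A5, LAMB1, HSPG2 and AGRN the first gene kept r of 0.907 or above after the condition means were taken off, and for COL18A1 and MELTF r was then 0.642.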

How the data were processed

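Messenger RNA of 18 libraries was measured with a stranded kit. The deposited counts are reads that the authors mapped uniquely, on hg38, and summed per gene, with no normalization. The submitters' processing notes name featureCounts and edgeR 3.28.0, and the aligner is not given in the sources used here. The deposited CPM, a signal normalized by the authors with TMM, and the deposited RPKM, which served only to give gene lengths, were used beside them. Of the RPKM columns, 3 did not match a sample label and were not used. The 292 rows without a symbol held at most 0.0442% of the reads of a library and were left out. Between 10330581 and 18327890 reads were counted per library, and intervals and limits from counts cover counting error only. Replicate pairs differed by more than sampling noise (chi-square per degree of freedom of 7.37 or more).

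Each comparison was fitted with the quasi-likelihood test of edgeR 4.0.16 (R 4.3.3) on the counts of its 6 libraries, with TMM. A gene entered if 3 or more of them exceeded 1 CPM, and 6 or more of 12 libraries in the fits of differences between comparisons. A call needed an FDR (Benjamini-Hochberg) under 0.05 and, except for those differences, a fold change over 1.5. Alternatives were limma 3.58.1 on log2(CPM + 1), DESeq2 1.42.0, RLE size factors, no filter on low counts, all 18 libraries in 1 fit, a replicate block, no fold threshold and leaving out each library. The scripts were tested on simulated data. Correlations of deviations between libraries of the same number were 0.543, 0.522 and 0.264 in siCtrl and siJag1. They were 0.595, 0.713 and 0.210 in siCtrl and Jag1WT. The main fits of these conditions used no pairing, and the replicate block is the fit that did. Cell-cycle genes are those of Seurat 5.3.0. Promoters are from RefSeq and gene positions from GENCODE v44. The 10 genes and the lists were chosen with earlier results of these data known. Named genes are all 10 members, JAG1, up to 4 genes a list by p in Jag1WT against Jag1KO, any list gene that was called, and the 3 genes most like each member.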

Additional observations from a re-analysis of the deposited data

Results flagged for a closer look

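Differences between effects that passed the test of the difference itself concern COL18A1 and LAMA5. COL18A1 was higher in Jag1WT than in Jag1KO while its rescue libraries were not above those with the empty plasmid, and the log2 fold changes differed by 2.74. The same contrast of siCtrl against siJag1 with the rescue gave a difference of 2.10 for COL18A1, at an FDR of 0.0493 just under the threshold, and of 1.96 for LAMA5. In each case the log2 fold change of the rescue was below 0, at −0.86 for COL18A1 and −1.20 for LAMA5, and neither value passed the adjusted test of edgeR. In 3 libraries per condition no library could be tested as an outlier.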

How the results depend on the processing

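Of 184 recomputed counts of called members, 155 were within 1.5 times the reported count and 29 were not. COL18A1 was higher in Jag1WT than in Jag1KO, as a called gene, under all alternatives except without Jag1WT replicate 3. The count of members higher in Jag1WT was 0 to 2 over single libraries left out, with 2 where 2.61% of all genes were called higher. Members lower in Jag1KO + rescue numbered 5 with DESeq2 (7.74% of all genes) and 5 with all 18 libraries in 1 fit (10.7%). They numbered 0 to 5 over libraries left out, with 5 where 14.8% of all genes were called lower. Members higher in siCtrl against siJag1 numbered 1 with DESeq2 (0.164% of all genes), 1 without a filter on low counts (0.0412%) and 1 with a replicate block (0.0313%). They numbered 0 to 1 over libraries left out, with 1 where 0.0316% of all genes were called higher. In Jag1KO + ctrl against Jag1KO, 0 to 1 members were higher over libraries left out, with 1 where 0.881% of all genes were called higher. The replicate block changed no other call within a comparison. The knockout and the rescue differed for 4 members with DESeq2 (7.71% of all genes), 3 without the filter (0.889%) and 3 with all 18 libraries (6.62%). Over libraries left out they differed for 1 to 4 members, with 4 where 19.9% of all genes differed. The siRNA and the rescue differed for 1 member with limma (0.0705% of all genes), 4 with DESeq2 (4.99%), 4 with all 18 libraries (2.03%) and 4 with a replicate block (3.79%). Over libraries left out they differed for 0 to 4 members, with 4 where 15.1% of all genes differed. The cause was not tested. No paired reading of the block is possible for the plasmid lines and Jag1KO, whose same-numbered libraries did not all deviate together (correlations between −0.610 and 0.667).

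Of 1026 recomputed log2 fold changes, 33 changed sign, all of them of values that had not passed the test. LAMC1 in the rescue was −0.011 with all 18 libraries, and AGRN in siCtrl against Jag1WT was 0.018 with limma and 0.0080 with a replicate block. Over all alternatives, single libraries left out among them, the values ran in Jag1WT against Jag1KO from −0.043 to 0.23 for AGRN and from −0.012 to 0.55 for LAMA5. In the rescue they ran from −0.067 to 0.099 for LAMC1, −0.0037 to 0.17 for COL4A1, −0.027 to 0.13 for COL4A2 and −0.25 to 0.18 for LAMB1. In siCtrl against siJag1 they ran from −0.12 to 0.39 for HSPG2 and −0.32 to 0.16 for COL4A5. In Jag1KO + ctrl against Jag1KO they ran from −0.10 to 0.055 for COL4A2 and −0.24 to 0.0033 for LAMB1. In siCtrl against Jag1WT they ran from −0.17 to 0.097 for AGRN, −0.047 to 0.22 for COL4A1, −0.0055 to 0.20 for COL4A2 and −0.39 to 0.099 for LAMA5. For the difference of knockout and siRNA they ran from −0.061 to 0.26 for COL4A1 and −0.074 to 0.12 for LAMB1.

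With 3 libraries per condition, small differences such as those of COL4A2 and LAMB1 in Jag1WT against Jag1KO could not be told from 0.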
